A study of Mus musculus with 9 samples.

Results

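The tumour from which a set of mouse T-cell lymphomas was propagated was compared with 3 of its telomerase-positive descendants. The material was 1 array of the parental tumour and 3 arrays of telomerase-positive tumours at passage 4 (P4-1, P4-2 and P4-3), which are 4 of the 9 arrays of the series. Of 12369 genes above a filter on low signal, 143 skeletal muscle and pancreas genes were set aside, and the other 12226 were compared. A gene was described as outside the passaged range where its parental signal lay above the highest or below the lowest of the 3 passaged arrays on a scale of log2(signal + 16). The distance to the nearest passaged array is called the gap, and a gap of at least 1 means a 2-fold distance on that scale. By this rule 6 genes were higher in the parental tumour (0.0491% of those compared) and 1 was lower (0.00818%), which makes 7 in either direction (0.0573%). With a single parental array there is no replicate error on that side, so no test was made and every value below is a description of these 4 arrays.

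All tumours carried the genotype G3 Atm-/-TERT-ER, were labelled T-cell lymphoma and were assigned SCID as the recipient strain, the parental tumour included. The 3 passaged telomerase tumours came from recipients given 4-OHT, the active tamoxifen metabolite, while the 5 tumours maintained by alternative lengthening of telomeres (ALT) came from recipients given vehicle and are shown only for orientation. The labels give no passage number and no agent of its own for the parental tumour. Whether P4-1, P4-2 and P4-3 came from separate animals or from separate branches of the parental line is not stated in the labels, so the spread between them may be partly technical. RNA was biotin-labelled and hybridised to Affymetrix arrays, and the authors deposited MAS5 signals, a linear measure of probe set brightness, whose median was between 39.8 and 43.8 on every array. No detection calls were used, so the level of background is unknown, and signals were compared only within a gene.

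Atm is the kinase that signals DNA double-strand breaks to p53 and to the checkpoint machinery. TERT-ER is the catalytic subunit of telomerase fused to an oestrogen receptor domain that responds to 4-OHT, so the drug switches telomerase activity on. Atm deficiency predisposes mice to thymic lymphomas made of immature T cells, in which rearranged T-cell receptor genes mark a clone and active Notch1 signalling is frequent. Serial passage transplants a tumour from one recipient to the next, so a passaged tumour can differ from its parent in its clones and in the recipient tissue sampled with it.

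Transcripts of other tissues stood apart on 3 of the 4 arrays. The 134 measured skeletal muscle genes had a summed signal of 34620 in the parental tumour and 26499 in P4-1, against 9601 in P4-2, 8858 in P4-3 and 7697 to 9999 in the ALT arrays. The 58 measured pancreas genes summed to 198438 in P4-3, against 1244 in the parental tumour, 1344 in P4-1 and 1275 in P4-2. In 3 of the 5 ALT arrays the pancreas sum was also high, at 145197, 229902 and 333065. Muscle transcripts were therefore high in the parental tumour and in P4-1, and pancreas transcripts were high in P4-3 but not in the parental tumour.

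**Figure D1:**
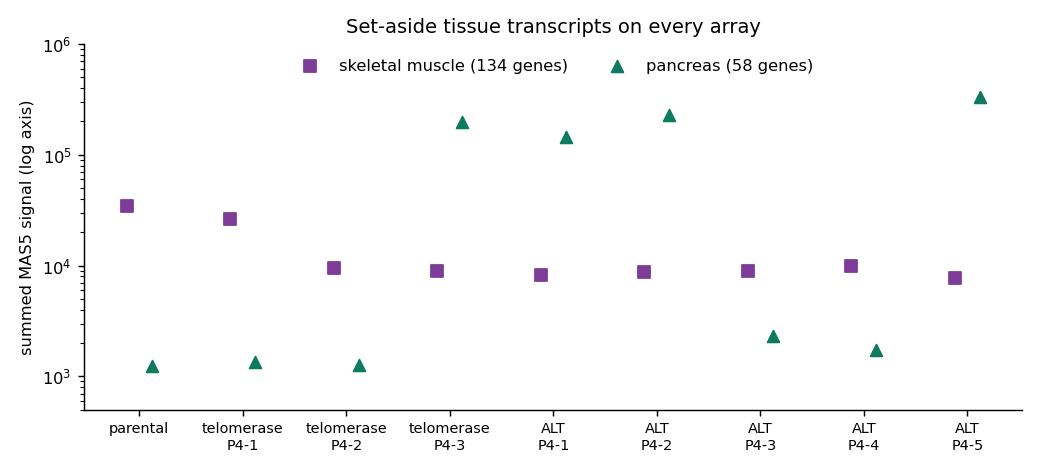
Summed MAS5 signal (log axis) of the skeletal muscle list (squares, 134 genes) and the pancreas list (triangles, 58 genes) on each of the 9 arrays, 1 point per list and array. The muscle points of the parental tumour and P4-1 (34620 and 26499) lie above all others, and the pancreas point of P4-3 (198438) lies far above those of the other 3 telomerase-positive arrays.

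Single muscle genes followed the same pattern. Ckm, the muscle creatine kinase, read 1209.7 in the parental tumour, 403 in P4-1, 36.7 in P4-2 and 48.1 in P4-3. Tnni2, the inhibitory troponin subunit of fast fibres, read 1059 against 445, 26.4 and 13.6. Myh7, the slow-fibre myosin heavy chain, read 169 against 69.3, 8.65 and 9.87. In each of these genes the parental tumour was highest and P4-1 came next. Myh1, the heavy chain of fast IIx fibres, was higher in P4-1 (812) than in the parental tumour (662), with 68.3 in P4-2 and 7.90 in P4-3. Of the 90 muscle genes above the filter 49 lay above the passaged range and 4 below it, and 9 had a gap of at least 1, namely Ckm, Myh2, Eno3, Tnni2, Tnnt3, Myh7, Cmya5, Myl2 and Pvalb. The median muscle gene was 0.16 higher on the log2 scale in the parental tumour than in P4-1, 1.20 higher than in P4-2 and 1.46 higher than in P4-3. With nothing set aside, 15 genes would have been higher at a gap of at least 1 in place of 6.

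After muscle and pancreas genes were set aside, the parental tumour was closest to P4-1. Parental and P4-1 signals differed by at least 1 on the log2 scale in 53 genes, of which 41 were higher and 12 lower in the parental tumour. The parental tumour differed from P4-2 in 135 genes, with 73 higher and 62 lower. It differed from P4-3 in 253 genes, with 103 higher and 150 lower. Among the passaged tumours themselves the numbers were 104 between P4-1 and P4-2, 269 between P4-1 and P4-3 and 306 between P4-2 and P4-3. The distance of the parental tumour from any one descendant was thus within the range of distances between descendants, or below it. The median absolute log2 difference followed the same order, at 0.12, 0.17 and 0.18 for the parental pairs and from 0.15 to 0.19 between passaged tumours.

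**Figure D2:**
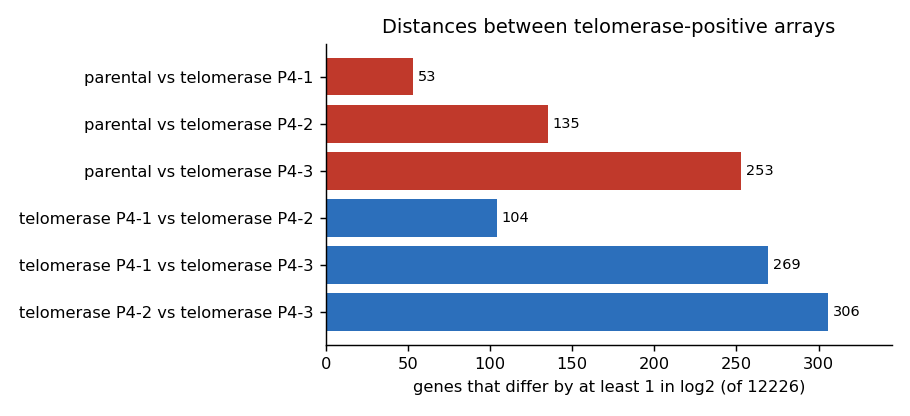
Number of genes, of 12226, that differ by at least 1 on the log2(signal + 16) scale between each pair of the 4 telomerase-positive arrays, as horizontal bars starting at 0. Red bars are pairs with the parental tumour (53, 135 and 253 genes) and blue bars are pairs of passaged tumours (104, 269 and 306 genes).

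The ALT arrays were farther away from all of them. The parental tumour differed by at least 1 from each ALT array in 666 to 1081 genes, P4-1 in 692 to 1066, P4-2 in 635 to 1004 and P4-3 in 641 to 913. Gene by gene, the passaged array nearest to the parental signal was P4-1 for 5431 genes (44.4%), P4-2 for 3423 (28.0%) and P4-3 for 3372 (27.6%). Most departures from the passaged range were small. The parental signal lay above the range in 3107 genes (25.4%) and below it in 2595 (21.2%), together 5702 genes (46.6%), but at a gap of at least 0.5 only 52 genes were higher (0.425%) and 65 lower (0.532%), together 117 (0.957%). Weak genes made up most of these, since 87 of the 117 had a mean signal under 100, and 2 of the 3834 genes with a mean of at least 500 reached a gap of 0.5.

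The 7 genes with a gap of at least 1 had varied functions. The count depends on having all 3 passaged arrays, since without P4-1 it was 23 higher and 7 lower, without P4-2 it was 10 and 3, and without P4-3 it was 22 and 2. Ccdc114 encodes a component of the docking complex of ciliary outer dynein arms. Its signal was 160 in the parental tumour, 13.4 in P4-1, 32.2 in P4-2 and 20.9 in P4-3, and 16.9 to 35.8 in the ALT arrays. All 8 passaged tumours were low and only the parental tumour was high, with a gap of 1.86 on the log2 scale (3.64-fold), the widest of all genes compared. Cfap43, a cilia- and flagella-associated protein, read 161 in the parental tumour, 20.7 in P4-1, 17.2 in P4-2 and 47.4 in P4-3, with a gap of 1.48. Here the ALT arrays were higher still, from 421 to 591 with a median of 570, so the parental tumour lay between both passaged groups without touching either. This rested on 1 of 3 probe sets with a gap of at least 1, and the gap was 0.24 when all probe sets were averaged.

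Ppef2 encodes a calcium-binding protein phosphatase best known from photoreceptors. It read 173 in the parental tumour against 53.6, 59.7 and 44.6 in P4-1, P4-2 and P4-3, a gap of 1.32. The ALT arrays ran from 93.0 to 183 with a median of 136, and the parental value fell inside them. Sgpp1, a phosphatase that degrades sphingosine-1-phosphate, read 262 in the parental tumour against 46.5, 46.7 and 105, a gap of 1.20, and 33.3 to 88.6 in the ALT arrays. No passaged tumour of either kind reached the parental level, though 1 of its 3 probe sets reached a gap of 1 and the average over probe sets had a gap of 0.58.

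Trav9d-3 belongs to the V segments from which the T-cell receptor alpha chain is assembled. The parental signal was 450.5, against 82.3 in P4-1, 184 in P4-2 and 75.8 in P4-3, a gap of 1.22. The ALT arrays lay between 202 and 410 with a median of 366, so the telomerase-positive descendants were the low group. The segment has near-identical copies in the alpha locus and its probe sets may not tell them apart, so which segment was measured is uncertain, and 3 of its 5 probe sets reached a gap of 1.

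Fhl1, a LIM-domain protein abundant in striated muscle, read 908 in the parental tumour, 421 in P4-1, 48.1 in P4-2 and 45.4 in P4-3, a gap of 1.08 that became 3.85 without P4-1. As for most of the muscle genes named above, the parental tumour was highest and P4-1 next. Over all 9 arrays its log2 signal correlated with the mean of the muscle list at r = 0.954, a description in which all points share the same arrays. When genes that follow the muscle or pancreas list at r of at least 0.9 were set aside too, Fhl1 dropped out and the other 6 genes were kept. The part of muscle tissue in its level was not tested.

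Cxcl13 was the only gene lower in the parental tumour by this rule. It encodes the chemokine that attracts B cells and follicular helper T cells into lymphoid follicles and is made by follicular stroma. Its signal was 249 in the parental tumour, 697 in P4-1, 726 in P4-2 and 1256 in P4-3, a gap of -1.43 (2.69-fold below the lowest passaged array). The ALT arrays covered 37.5 to 467 with a median of 65.2, so the parental value lay inside their range. Both Cxcl13 probe sets had a gap beyond 1 in the same direction. In these bulk samples, fewer cells of a type and less RNA per cell cannot be told apart.

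**Figure D3:**
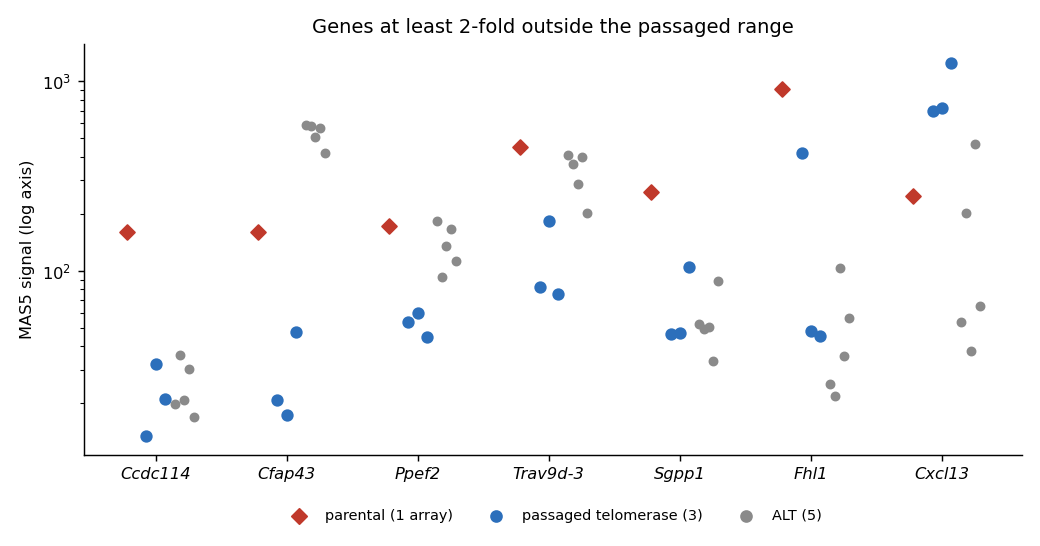
MAS5 signal (log axis) of the 7 genes with a gap of at least 1, with 1 point per array: the parental tumour (red diamonds, 1 array), passaged telomerase tumours (blue circles, 3 arrays) and ALT tumours (grey circles, 5 arrays). Each red diamond lies apart from the blue circles, and only for Cxcl13 is it below them (249 against 697 to 1256).

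Of the 6 higher genes, 4 were above all 5 ALT arrays as well, Ppef2 was inside their range and Cfap43 was below it. Of the 52 genes higher at a gap of at least 0.5, the parental tumour was above all ALT arrays in 34, inside their range in 15 and below all of them in 3. Of the 65 lower genes it was below all ALT arrays in 48, inside in 12 and above in 5. The parental side was compared with the same array each time, so these counts share that array. The genes were also chosen for an extreme parental signal, which by itself favours a place beyond the ALT arrays. The same share over all genes compared was not computed, so these counts support nothing by themselves.

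Other genes near the threshold were mostly faint. Just outside it on the higher side lay Sez6 (gap 0.89), Cnnm1 (0.84), Dusp13 (0.83) and Glycam1 (0.83). Glycam1, a mucin-like ligand for L-selectin on lymph node venules, read 182 in the parental tumour, 95.6 in P4-1, 93.2 in P4-2 and 3.94 in P4-3. Its signal in the ALT arrays ranged from 6.44 to 186 and spanned the parental value. Hdac9, a class IIa histone deacetylase, read 253 against 91.5, 143 and 49.1, a gap of 0.76, and 3.42 to 29.3 in the ALT arrays. The order for Hdac9 was parental, telomerase and ALT, with no overlap between these groups. Sav1, the scaffold of the Hippo kinases, was also higher in the parental tumour, at 256 against 90.6, 71.7 and 147 in the passaged telomerase tumours. The ALT tumours were higher still for Sav1, at 409 to 715. The remaining genes among the 15 with the widest gaps, 1700001L05Rik, Prl6a1 and Dbh, had parental signals of 38.2 to 61.6.

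On the lower side the next gene after Cxcl13 was Cldn4, a tight-junction claudin, which read 15.7 in the parental tumour against 41.7, 44.7 and 52.4, a gap of -0.87. Slit1, Vsig10, Gdap1, Rsph1, Tctn2, Kctd15, Fam78b, Gm5142, Alox12, Camta1, D130017N08Rik, Gal and Kif12 completed the 15 lowest, with gaps from -0.84 to -0.71. Their parental signals ran from 5.43 to 25.3 and no passaged telomerase signal exceeded 65.1. Parental signals of the 14 genes after Cxcl13 thus lay near or below the filter level of 25.3, where the gap depends on the pseudocount of 16. Camta1, a calmodulin-binding transcription activator, read 10.9 in the parental tumour and 32.4, 58.6 and 28.7 in the passaged telomerase tumours, but 334 to 416 in the ALT tumours.

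Several defining T-cell genes had similar signals in the parental tumour and its descendants. Cd3d, a chain of the CD3 complex, read 9546 in the parental tumour, 9846 in P4-1, 9416 in P4-2 and 9308 in P4-3. Thy1, a pan-T-cell surface protein of the mouse, read 4930 against 5209, 5001 and 5567, a gap of -0.02. Cd8a was strong at 1451 against 1565, 1295 and 1302, while Cd4 was weak at 50.1 against 48.6, 33.8 and 34.7. Rag1, the recombinase of immature lymphocytes, read 3375 against 3742, 3736 and 4413, and Ptcra, the pre-T-cell receptor alpha chain, 2407 against 3343, 2670.0 and 2881. Both thymocyte genes were slightly below all 3 descendants, each with a gap of -0.15. Of 22 immature thymocyte genes 4 lay above the passaged range and 8 below it. The widest gap among them was -0.31 for Kit, at 86.6 against 111, 200 and 132. Notch1 read 12911 against 12565, 10903 and 12074, and Myc read 1825 against 1776, 1525 and 1474, each with a gap of 0.04. Of 25 T-cell marker genes 8 lay above the passaged range and 2 below it, and none reached a gap of 1. The widest gaps among these markers were on the higher side, 0.45 for Lat, 0.24 for Lef1 and 0.22 for Cd2. For the thymocyte and T-cell lists alike, the base over all genes compared is 25.4% above the range and 21.2% below.

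Receptor segments with strong signal were shared. Trbv1, a beta-chain variable segment, read 7396 in the parental tumour and 6752, 7101 and 7753 in P4-1, P4-2 and P4-3. Trgv1, a gamma-chain segment, read 892 against 918, 857 and 889.8, whereas the ALT arrays had 15.2 to 132. Trgv4 read 2209.9 against 1261, 1621 and 3009, and 4.59 to 167 in the ALT arrays. For these 3 segments the parental signal lay inside the passaged telomerase range, and for both gamma segments it was above every ALT array. Of the 10 receptor segments measured, 4 passed the filter and Trav9d-3 was the one outside the range.

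Defining markers of other cell types were low or lay near the passaged levels. The B-cell genes Ms4a1 and Cd79a, the natural killer receptor Ncr1 and the globin Hba-a1 were below the filter. Other members of these lists passed it. Over all genes compared, 25.4% lay above the passaged range and 21.2% below it. Counts near these shares say nothing about a cell type. Of 7 natural killer and cytotoxic genes 4 were below the range and 0 above, with Nkg7 at 594 against 882, 1031 and 782. Of 11 erythroid genes 3 were above and 4 below. The globin Hbb-b2 was above at 155 against 96.5, 78 and 80.5, a gap of 0.61. Of 13 B-cell genes 3 were above and 3 below, together 46.2%, beside 46.6% of all genes compared. The complement gene C1qa, made by macrophages, read 1209.6 in the parental tumour against 1470.4, 1322 and 1938. Of 30 macrophage genes 2 were above the passaged range and 11 below it, with median log2 differences of -0.10, -0.09 and -0.24 from P4-1, P4-2 and P4-3. Pecam1, an endothelial adhesion molecule, read 79.1 against 85.2, 53.8 and 63.5, inside the range. In the lymph node stroma list, which holds Cxcl13, 4 of 8 genes lay below the range and 0 above, with a list median of -0.32. Apart from Cxcl13 the largest of these gaps was that of Ltbr, the lymphotoxin beta receptor, at -0.28 (26.7 against 46.0, 43.2 and 35.7). Of 13 fat-cell genes 6 were above the range and 0 below, with medians of 0.16, 0.16 and 0.22. Against the median of the 3 passaged arrays the list median was 0.21, beside 0.012 for all genes compared. Adipoq, the adipokine that defines fat cells, was left out by the filter on the mean over 9 arrays, and its signal ran the same way, at 46.2 against 24.4, 17.4 and 9.01.

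Genes of telomere maintenance showed little difference. Tert, the telomerase catalytic subunit, read 54.8 in the parental tumour, 50.7 in P4-1, 47.5 in P4-2 and 35.2 in P4-3, a gap of 0.08. These probe sets may or may not read the TERT-ER transgene, which the labels do not settle. Of the 23 genes of telomerase and of the telomere-binding complexes 6 lay above the range and 7 below it, with medians of -0.015, -0.0054 and -0.029. Over all genes compared 25.4% were above and 21.2% below. In this list 0 genes had a gap of at least 1, which 0.0573% of all genes compared reached. Gar1, a protein of the telomerase and box H/ACA particles, had the widest gap in the list, 0.31, with 2367 in the parental tumour against 1907, 1628 and 1837. Dkc1, its partner in the same particle, was on the other side at 1759 against 1928, 1848 and 2047. Terf1, a double-stranded telomere binder, read 699 against 715, 791 and 848.

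The p53 target list had the highest median of the 51 lists, 0.32, and P4-1 was the descendant that shared the parental level. Its median difference was -0.0053 from P4-1, 0.45 from P4-2 and 0.39 from P4-3. Cdkn1a, the p21 cell cycle inhibitor, read 1311 in the parental tumour, 1633 in P4-1, 752 in P4-2 and 371 in P4-3. Zmat3, an RNA-binding p53 target, read 1996, 2024, 1460 and 977 in the same order. Ccng1, cyclin G1, read 2579.9 and 2589.5 in the parental tumour and P4-1 against 1465 and 1178. Phlda3, an inhibitor of Akt, read 753 and 797 against 446 and 228. In these 4 genes the parental tumour and P4-1 formed a high pair and P4-2 and P4-3 a low one. Of 25 targets 10 lay above the range and 2 below, beside 25.4% and 21.2% of all genes compared. There were 0 at a gap of 1, which 0.0573% of all genes compared reached. The widest gap was on the lower side, -0.30 for Perp (132 against 201, 263 and 167). Bbc3, the apoptotic effector Puma, read 146 against 118, 93.6 and 57.0, a gap of 0.28. Cdkn2a, which encodes p16 and Arf, was listed with the targets, although Arf acts upstream of p53. Its signal was 106 in the parental tumour, 214 in P4-1, 64.2 in P4-2 and 41.5 in P4-3, and 3.26 to 9.20 in the ALT tumours. The muscle sums were also high in the parental tumour and P4-1 (34620 and 26499), and their part in the p53 target levels was not tested.

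**Figure D4:**
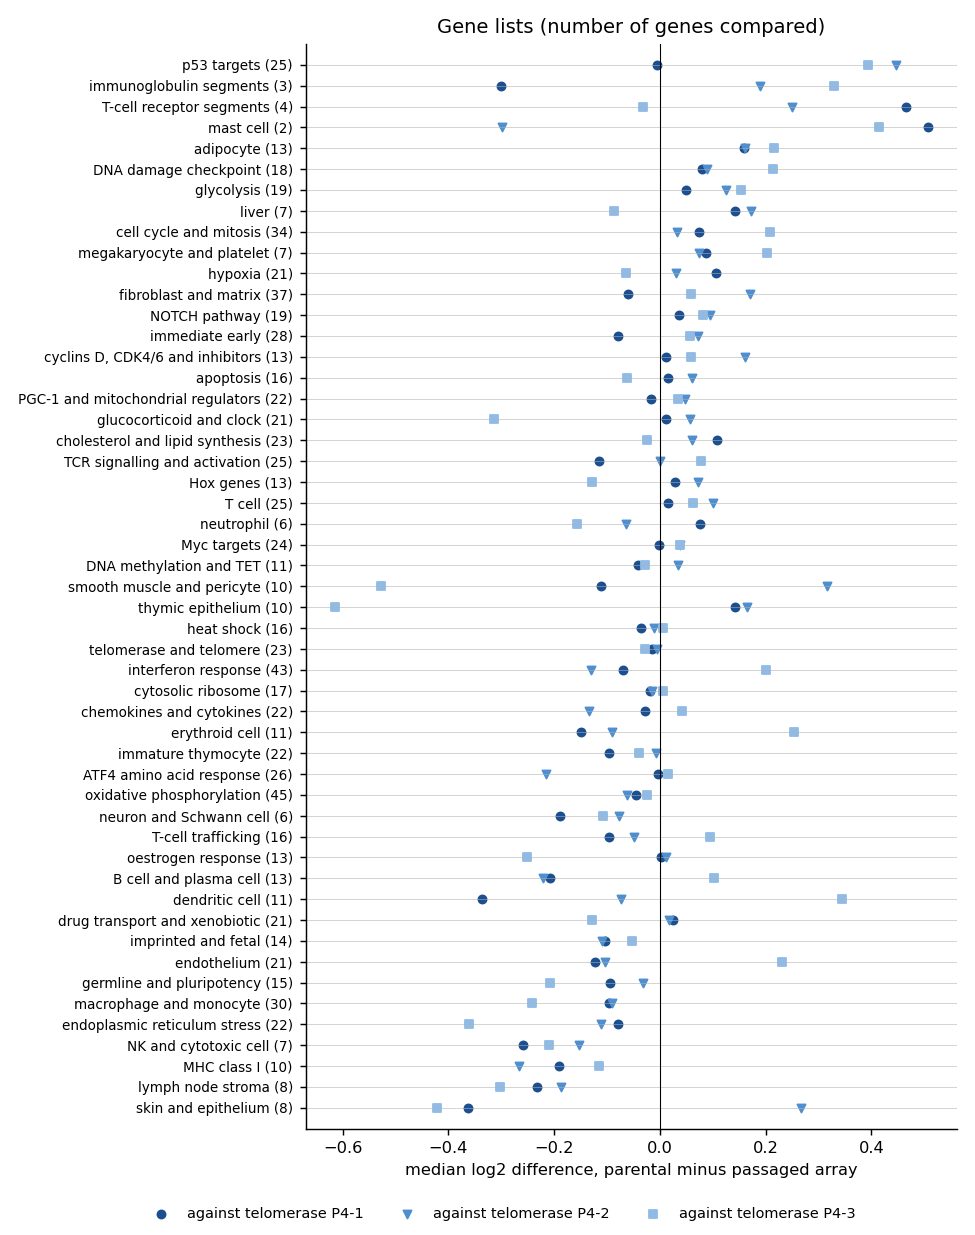
Median log2 difference between the parental tumour and each passaged telomerase array for 51 gene lists, with the number of genes compared in parentheses (circles against P4-1, triangles against P4-2, squares against P4-3). The p53 target points spread from -0.0053 to 0.45, while the telomerase and telomere points lie together between -0.029 and -0.0054.

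Some proliferation genes had their highest signal in the parental tumour. Of 34 cell cycle genes 18 lay above the passaged range and 2 below it, beside 25.4% and 21.2% of all genes, with medians of 0.07, 0.03 and 0.21. The median of all genes compared was -0.0019, 0.036 and 0.0096 against the same arrays, so the list median against P4-2 did not exceed it. Mki67, the proliferation marker, read 5288 in the parental tumour against 3936, 3785 and 3354, a gap of 0.42. Cdk1, the mitotic kinase, read 4805 against 3901, 3617 and 3595, a gap of 0.30. The ALT arrays covered 3639 to 4585 for Mki67 and 3514 to 4477 for Cdk1, so the parental tumour was the highest of the 9 arrays for both. Of 18 DNA damage checkpoint genes 10 were above the range and 2 below, with medians of 0.08, 0.09 and 0.21. Rad50, a subunit of the break-sensing MRN complex, read 431 against 380.4, 373 and 317. Of 19 glycolysis genes 8 were above and 2 below, and Aldoa was above at 4289.6 against 3702, 3411 and 2990.1. Over all 9 arrays the log2 signal of Aldoa correlated with the mean of the muscle list at r = 0.62. The part of muscle tissue in its level was not tested.

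Other groups lay on the low side, beside 21.2% of all genes compared below the range and 25.4% above it. Of 22 genes of endoplasmic reticulum stress 0 were above the range and 11 below it, with medians of -0.08, -0.11 and -0.36. The chaperone Hspa5 was inside the range at 4787 against 4721, 5476 and 6629, and the disulphide isomerase Pdia6 was below it at 1338 against 1486, 1542 and 1547. Secretory genes are abundant in the pancreas, whose transcripts were high in P4-3, and their part in the difference from P4-3 was not tested. Of 10 MHC class I genes 5 were below and 0 above. H2-K1 read 540.3 against 647, 748 and 613, and H2-D1 read 625 against 715, 831 and 707. Of 45 oxidative phosphorylation genes 19 were below and 7 above, with medians of -0.05, -0.06 and -0.02. Ndufv2, a core subunit of complex I, read 3192 against 3595, 3645 and 3617. H2-K1, H2-D1 and Ndufv2 lie on chromosome 17, where 32.0% of genes were below the range and 13.5% above. Among 51 lists, 36 had a median within 0.1 of 0, and 49 held no gene with a gap of at least 1. Only 0.0573% of all genes compared reached such a gap.

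The genes also differed by where they lie on the chromosomes. Genes were taken in blocks of 20 neighbours in RefSeq order (GRCm38.p6), and 597 blocks were formed. In 161 blocks the median difference was above 0 from all 3 passaged arrays, and in 104 it was below 0 from all 3. Runs of at least 5 such blocks in a row were found 3 times, all with higher signal in the parental tumour, on the distal parts of chromosomes 3, 7 and X. Together they held 876 genes, 7.17% of those compared. Because the runs were chosen by these differences, their size is a description and supports nothing by itself.

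The run on chromosome 7 covered the last 18 of 45 blocks, 377 genes from Thrsp to Tpcn2. Its median gene was 0.19 higher in the parental tumour than in P4-1, 0.24 higher than in P4-2 and 0.25 higher than in P4-3. Between the passaged tumours the medians over the same genes were 0.07, 0.09 and 0.0030, so the parental distance was larger than any among them. Over this stretch 226 genes (59.9%) lay above the passaged range and 32 (8.49%) below. Against the single ALT arrays the median was 0.16 to 0.22 higher. The first 27 blocks of the chromosome showed no such run.

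Single genes of this stretch showed the size of the difference. Bub3, a protein of the spindle checkpoint, read 5488 in the parental tumour against 3899, 3338 and 3407, and 3368 to 3650.2 in the ALT arrays. Lat, the adaptor that links the T-cell receptor to its signalling enzymes, read 7559.6 against 5537, 5171 and 5197, and 4945 to 5551 in the ALT arrays. For both genes the parental tumour was above all 8 passaged tumours, and the 8 overlapped each other. Mtg1, a mitochondrial ribosome assembly GTPase, read 416 against 262, 272 and 210.2, a gap of 0.58. Bnip3, a mitophagy receptor and hypoxia target, read 315 against 164, 193 and 219.8, but its ALT range of 248 to 447 included the parental value. Mki67, Itgal, Sirt3 and Aldoa also lay in this run. Itgal, the alpha chain of the integrin LFA-1, read 1648 against 1339.7, 1207 and 1293.

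The run on chromosome X covered the last 5 of 17 blocks, 119 genes from 2810403D21Rik to Erdr1. Its medians were 0.14, 0.24 and 0.24 against P4-1, P4-2 and P4-3, and 67 genes (56.3%) were above the passaged range with 8 (6.72%) below. Between passaged tumours the medians reached 0.11 and stayed below the smallest parental difference. Sh3kbp1, an adaptor of receptor endocytosis, read 3632 against 2718, 2708 and 2748. Gemin8, a member of the SMN complex, read 444 against 311, 276 and 284. The 3 descendants were close together for both genes, and the parental tumour was above them. The ALT arrays ran from 363 to 446 for Gemin8 and from 2652 to 3349 for Sh3kbp1, so the parental tumour was within the ALT range for Gemin8 and above it for Sh3kbp1. Xist, the non-coding RNA of the inactive X chromosome, lies outside the run and read 394 against 455, 352 and 514, inside the passaged range.

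The run on chromosome 3 was the longest and the least even. It covered blocks 11 to 29 of 30, 380 genes from Gm3764 to Ifi44l, with medians of 0.17, 0.28 and 0.11 against P4-1, P4-2 and P4-3. Here the passaged tumours differed among themselves by up to 0.18, between P4-2 and P4-3, which is more than the parental tumour differed from P4-1 or P4-3. The genes above the range numbered 206 (54.2%) and those below 31 (8.16%). Against the ALT arrays the median was 0.27 to 0.37 higher. Anp32e, a histone chaperone that removes H2A.Z, read 5260.0 against 3696, 3673 and 3848. Trmt10a, a transfer RNA methyltransferase, read 587 against 378, 348 and 332, a gap of 0.61. Gar1 and Lef1 lie in this run as well, and Lef1, which partners beta-catenin in developing thymocytes, read 4319 against 3662, 2928 and 3572.

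**Figure D5:**
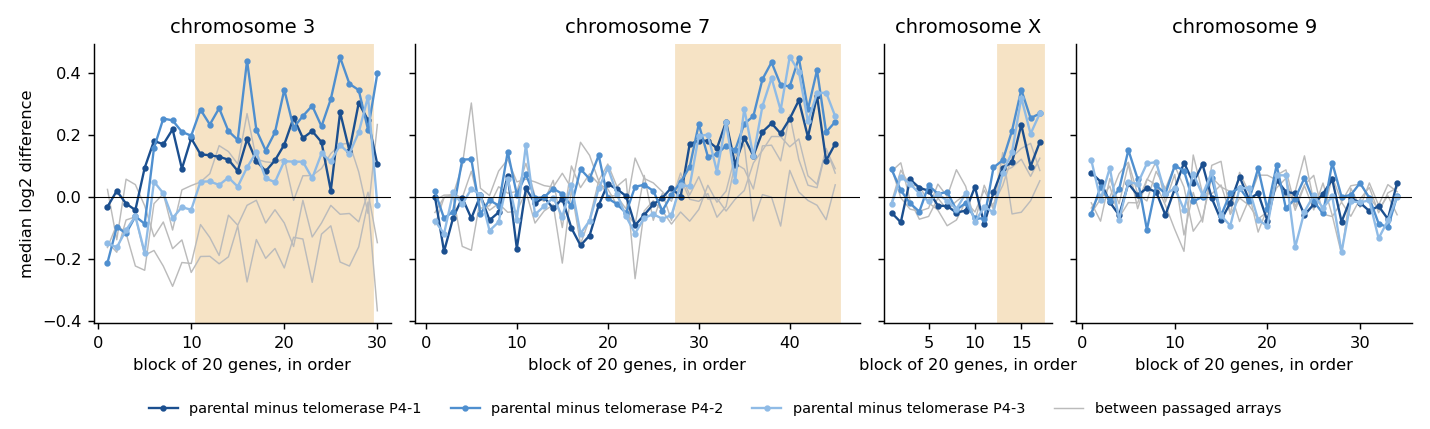
Median log2 difference in blocks of 20 neighbouring genes along chromosomes 3, 7, X and, for contrast, 9, in gene order. Blue lines are the parental tumour minus each of the 3 passaged telomerase arrays, grey lines are differences between passaged arrays, and shading marks the runs, where the blue lines stay above 0 (medians 0.11 to 0.28 on chromosome 3, 0.19 to 0.25 on 7, 0.14 to 0.24 on X).

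The runs also hold many of the strongly expressed genes with a wide gap, a count that the choice of the runs by the same differences largely fixes. Among genes with a mean signal of at least 500, 80 had a gap of at least 0.25 on the higher side and 55 of them lay in the 3 runs, while 23 had such a gap on the lower side and 0 lay there. None of the 7 genes with a gap of at least 1 was in a run, and 9 of the 52 higher genes at a gap of 0.5 were.

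Other chromosomes leaned one way without forming a run. Over all genes compared 25.4% were above the passaged range and 21.2% below. On chromosome 13, 35.6% of 441 genes were above the passaged range and 10.2% below, with medians of 0.03, 0.15 and 0.03 against P4-1, P4-2 and P4-3. On chromosome 15 the shares were 29.6% above and 13.3% below. On chromosome 10 they were 26.7% and 11.8%, with medians of -0.0012, 0.18 and -0.025 against P4-1, P4-2 and P4-3. The opposite lean was seen on chromosome 14, with 10.8% above and 33.0% below, on chromosome 17, with 13.5% and 32.0%, and on chromosome 18, with 9.52% and 31.6%. The medians of these last 3 were largest in size against a different descendant each, -0.15 against P4-3 on chromosome 14, -0.12 against P4-1 on 17 and -0.20 against P4-2 on 18. Against P4-3 the median of chromosome 18 was 0.014, on the other side of 0. Chromosome 9 was flat, with a median of 0.0010. DNA copy number was not analysed here, and the part of gene dosage in these differences was not tested.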

How the data were processed

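Affymetrix arrays of 9 mouse tumours were used (1 parental, 3 telomerase P4, 5 ALT P4, grouped by the submitters' labels). The deposited table holds 1 intensity per probe set and array. Per the submitters' processing notes MAS5 produced these signals, and its version, settings and scaling target are not stated there. Of 45101 probe sets 34958 named 1 gene, 932 several and 9211 none in GEO's platform annotation, and 34754 matched RefSeq (GRCm38.p6), which gave gene order. Each of 18194 genes was represented by its probe set of highest mean over 9 arrays. Genes in the lowest 40% of probe sets by mean (signal 25.3) were left out. Values were log2(signal + 16), with no further normalisation.

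Members and lists were chosen with earlier results of these data known. Of 1372 listed symbols 1254 were measured. Genes named by rule were the 15 with the widest gap in each direction, list members with a gap of at least 1, defining cell type markers, and Tert, Myc, Notch1, Cdkn1a and Cdkn2a; the other genes named, and all chromosome runs, were chosen after their values were seen. No 2 arrays were identical. No test was run. The gap computation was tested on simulated data. Alternatives covered the pseudocount, filter, scaling, probe set summary, set-aside genes, gap and each passaged array left out. Python 3.11.15, numpy 2.4.6, pandas 2.3.3 and matplotlib 3.10.9 were used. The number of arrays limits the precision.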

Additional observations from a re-analysis of the deposited data

How the results depend on the processing

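The 6 higher and 1 lower genes at a gap of at least 1 became 10 and 27 with a pseudocount of 1. They became 4 and 1 with 64 (without Ppef2 and Sgpp1) and 7 and 2 with no filter. With the lowest 60% left out they were 5 and 1 (without Ccdc114, the gene with the widest gap). They were 2 and 1 when probe sets were averaged (without Cfap43, Fhl1, Sgpp1 and Trav9d-3) and 10 and 3 for single probe sets. Quantile normalisation and median centring each kept all 7 genes. With nothing set aside 15 genes were higher, and with genes that follow muscle or pancreas set aside too 5 were. At a gap of 0.5 there were 52 and 65 genes, at a gap of 2 there were 0 and 0, and 31 and 25 lay at least 1 from the mean of the passaged arrays. Leaving out 1 passaged array gave 10 to 23 higher and 2 to 7 lower genes and kept all 7 each time; a range of fewer arrays is narrower by construction.

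The run medians were added after seeing the data and stayed above 0 under all 14 settings, the main one included (0.14 to 0.24 on chromosome 3, 0.16 to 0.24 on X). The choice of the runs by the same differences largely fixes this sign, so it supports nothing by itself. On chromosome 7 the median was 0.22, 0.17 with a pseudocount of 64 and 0.26 with the lowest 60% left out; the cause was not tested. List medians for p53 targets, cell cycle, DNA damage checkpoint, glycolysis and fat cells stayed above 0 and those for endoplasmic reticulum stress, MHC class I, oxidative phosphorylation, macrophages and lymph node stroma below 0 in all 15 settings, while the telomerase and telomere median was above 0 in 4 and below 0 in 11. Gap limits and the distance to the passaged mean give no run median of their own. No paired analysis was possible because the parental tumour is 1 array with no replicate number and the results come from no test.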
